A study of Mus musculus with 4 samples.

Results

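Expression of the metallothioneins and of target genes of the transcription factor NRF2 was measured across 4 mouse heart sections after myocardial infarction (MI). The 9 genes, Mt1, Mt2, Nqo1, Srxn1, Gclm, Gclc, Txnrd1, Slc7a11 and Gsr, were taken by their symbols from the 32285 genes of the count tables, and all 9 were found. Between 39 (Slc7a11) and 38183 (Mt1) UMIs of each were counted in the spots used. Each section came from 1 adult Hsd:ICR (CD1) mouse that had the left anterior descending coronary artery tied off permanently at an age of 12 weeks, and the hearts were taken on days 1, 4, 7 and 14 after the injury. The methods describe female mice operated under isoflurane with buprenorphine, so all 4 mice share these treatments. No sham-operated or uninjured section was among these samples, and with 1 mouse per day the day, the mouse and the capture area cannot be told apart. Visium collects mRNA on spots that each lie under several cells, and 1 unique molecular identifier (UMI) stands for 1 captured molecule.

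Metallothioneins are small cysteine-rich proteins that bind zinc and copper and react with oxidants. Their genes respond to zinc through MTF1, which binds metal response elements (MREs), and also to glucocorticoids and inflammatory cytokines. NRF2 is normally held by KEAP1 and degraded. When oxidants or electrophiles modify KEAP1, NRF2 accumulates, pairs with small MAF proteins and binds antioxidant response elements (AREs). Its targets make and recycle glutathione (Gclc, Gclm, Gsr, Slc7a11), recycle thioredoxin and peroxiredoxins (Txnrd1, Srxn1) and reduce quinones (Nqo1).

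Within each section, spots were ranked by the share of their UMIs from Myh6 and Myl2, which encode contractile proteins of ventricular muscle, and separately by the share from Ankrd1, Flnc, Xirp2 and Nppb, which strained heart muscle cells increase. Each ranking was cut into quartiles of equal spot number. Values are UMIs per 1000000 UMIs of the group of spots, abbreviated CPM. After removal of spots with over 1% hemoglobin UMIs, 7503 of 9102 spots remained, 1679 to 2086 per section, with 9292678 to 15713779 UMIs per section. The 6 cardiomyocyte markers not used for ranking (Tnnt2, Actc1, Tnni3, Mb, Pln and Atp2a2) summed to 47431 to 53657 CPM in the highest muscle quartile of the 4 sections. In the lowest they summed to 28241, 10711, 8109 and 37166 CPM on days 1, 4, 7 and 14. The lowest quartile thus held different tissue on different days and the most muscle on day 14. A smaller gap between the quartiles on a day can therefore not be read as a change of the gene alone. The lowest muscle quartile held 2093, 36670, 39419 and 8585 CPM of 6 fibroblast genes on days 1, 4, 7 and 14, against 978 to 1526 CPM in the highest. Macrophage genes (6) reached 979 to 6194 CPM there against 284 to 445 CPM, and neutrophil genes (5) 70.0 to 399 CPM against 4.04 to 17.2 CPM. Border-zone genes (5) summed to 18692, 19358, 13274 and 4859 CPM in the lowest muscle quartile of the 4 days. In the highest they summed to 3173 to 4035 CPM. Smooth muscle genes (4) reached 229 to 1454 CPM in the lowest against 59.5 to 129 CPM. Single genes did not all follow these sums, with 3 of 5 border-zone and 4 of 5 neutrophil genes higher there in all 4 sections. Adipocyte genes (5) summed to 199, 5.44, 195 and 0.96 CPM in the lowest quartile of the 4 days, against 6.14 to 19.7 CPM. Mesothelial genes (4) summed to 9.87, 12.0, 244 and 54.7 CPM against 4.48 to 16.9 CPM. On day 1 the stress genes used for ranking summed to 12325 CPM in the lowest muscle quartile and 878 CPM in the highest. No marker of these lists was at 0. On day 7 the lowest muscle quartile also held 20340 CPM of 10 fast skeletal muscle genes. At least 10 such UMIs were found in 118 spots of that section and in 0 spots of the other days. The spots of the lowest muscle quartile were shallower as well, with a median of 2330 to 6525 UMIs against 5515 to 9221 UMIs. Mitochondrially encoded genes gave 8.73% to 29.8% of its UMIs, against 27.1% to 33.2% in the highest quartile.

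Mt1 and Mt2 are neighbours on chromosome 8 and share their strand. Mt2 spans chr8:94172664-94173568 and Mt1 spans chr8:94179082-94180327 in GRCm38, with 5513 bases between them. The longest run of bases that their annotated transcripts share is 20, so most reads can be assigned to one of the pair, and a predicted gene (Gm45774) lies over Mt2 on the other strand. Their promoters are shown because the pair is compared throughout and because MREs are the elements by which zinc acts on both. The windows are the 250 bases before the RefSeq start in GRCm38.p6, on the plus strand, at chr8:94178839-94179088 for Mt1 and chr8:94172368-94172617 for Mt2. Capitals mark matches to the MRE core (TGCACNC or TGCGCNC, searched on both strands).
Mt1 promoter: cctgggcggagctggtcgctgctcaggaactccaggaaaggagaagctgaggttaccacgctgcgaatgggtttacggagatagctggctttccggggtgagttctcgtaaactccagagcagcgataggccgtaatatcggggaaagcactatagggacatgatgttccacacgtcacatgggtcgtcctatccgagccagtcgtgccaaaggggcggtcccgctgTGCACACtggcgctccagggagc
Mt2 promoter: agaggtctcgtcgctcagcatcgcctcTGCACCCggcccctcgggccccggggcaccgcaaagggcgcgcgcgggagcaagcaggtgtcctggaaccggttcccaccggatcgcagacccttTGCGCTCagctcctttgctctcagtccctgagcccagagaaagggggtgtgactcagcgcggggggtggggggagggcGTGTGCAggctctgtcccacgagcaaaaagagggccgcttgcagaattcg
The Mt1 window held 1 match, 23 bases before the start, and the Mt2 window held 3, at 223, 128 and 50 bases. Bases after the RefSeq start were not searched, so matches lying there are not counted for either gene. Of 32851 promoter windows of this length, 21.4% held at least 1 MRE match and 1.26% held 3 or more. An ARE core (TGACNNNGC, both strands) was found 79 bases before the Mt2 start and not in the Mt1 window, and 10.2% of all windows held one. Of the NRF2 targets, windows were at hand for Nqo1, Srxn1, Gclm, Txnrd1 and Slc7a11, and an ARE match lay 134 bases before the start of Gclm and 92 bases before 1 of the 3 starts of Txnrd1. GENCODE, used for the gene positions, places the Mt2 start 46 bases downstream and the Mt1 start 7 bases upstream of the RefSeq starts and lists further transcripts. Which matches fall inside a window therefore depends on the start chosen, for the 1 against 3 MRE matches and for the ARE match alike. The windows do not show that Mt1 has fewer MREs than Mt2 or lacks an ARE. Such a match is a description of the letters, not of a bound site.

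The level of the metallothioneins was highest in the day 1 section. Mt1 measured 1301, 793, 399.8 and 479.5 CPM over all spots on days 1, 4, 7 and 14, and Mt2 measured 419.7, 146, 42.4 and 46.6 CPM. The day 1 level was thus 2.71-fold that of day 14 for Mt1 (95% interval 2.64 to 2.79) and 9.0-fold for Mt2 (8.32 to 9.74). Such intervals reflect the counting of UMIs alone, and days were not tested against each other because each is 1 mouse.

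Of the NRF2 targets other than Slc7a11, Srxn1 had the largest ratio between day 1 and day 14. Srxn1 (chr2:152105516-152111376), which reactivates oxidised peroxiredoxins, measured 26.4, 18.0, 18.2 and 9.99 CPM on the 4 days, 2.64-fold more on day 1 than on day 14 (2.17 to 3.22). Txnrd1 (chr10:82833951-82897712), the cytosolic thioredoxin reductase, measured 44.3, 42.8, 35.2 and 25.9 CPM. Nqo1 (chr8:107388225-107403206, minus strand), a quinone reductase, measured 47.0, 37.0, 34.9 and 30.9 CPM. All of these 3 were lowest on day 14, with day 1 to day 14 ratios of 1.71 (1.50 to 1.95) for Txnrd1 and 1.52 (1.34 to 1.72) for Nqo1. Gclm and Gclc, the modifier and catalytic subunits of the enzyme that starts glutathione synthesis, had their highest values on day 4. The day 1 to day 4 ratio was 0.884 for Gclm (0.762 to 1.02, which includes equal levels) and 0.698 for Gclc (0.518 to 0.935). Gclm (chr3:122245557-122270732) measured 26.4, 29.8, 22.6 and 16.4 CPM, and Gclc (chr9:77754535-77794485) measured 6.28, 8.99, 6.89 and 5.73 CPM. Gsr (chr8:33652523-33698163), which regenerates reduced glutathione, stayed within 21.3 to 26.6 CPM.

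Slc7a11, the cystine importer subunit of system xc-, was near the limit of detection. It gave 39 UMIs in all, of which 4, 30, 5 and 0 came from days 1, 4, 7 and 14. A count of 0 on day 14 allows up to 0.191 CPM (3 counts of the section's total). Of the 39 UMIs, 37 lay in the lowest muscle quartile and 2 in the next, while the upper 2 quartiles held none, which allows up to 0.106 CPM. Pooled over sections, the lowest quartile measured 4.09 CPM, 18.4-fold the 0.222 CPM that a count of 0 allows in the highest. This ratio leaves out the counting error of the 37 UMIs, so it is not a lower limit. The day 4 section alone gave 30 of the 37 UMIs, and without it this ratio fell to 3.60-fold (7 UMIs or 1.11 CPM against a floor of 0.309 CPM). Slc7a11 (chr3:49892526-50443614) was below the minimum of 100 UMIs for testing, and predicted genes overlap it on both strands.

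The first comparison asked how the genes follow the muscle content of the tissue. Mt2 rose toward muscle-poor spots, in every section and over all 4 quartiles. Mt1 did not pass the test, and by CPM it differed mainly in the day 1 section. From the lowest to the highest muscle quartile, Mt2 measured 943, 596, 131 and 64.0 CPM on day 1. On day 4 it measured 327, 203, 67.0 and 49.0 CPM, on day 7 it measured 105, 62.4, 16.01 and 13.8 CPM, and on day 14 it measured 111, 42.6, 34.6 and 32.6 CPM. The lowest quartile was therefore 14.7-fold, 6.67-fold, 7.58-fold and 3.42-fold above the highest, and the order of the quartiles was the same in the 4 sections. The 95% intervals of quartiles 3 and 4 overlapped on days 7 and 14, so their order there is within counting error. Mt2 in the muscle-poor quartiles of days 7 and 14 was still higher than in the muscle-rich quartiles of days 1 and 4 (64.0 and 49.0 CPM). A higher level in a group of spots can come from more cells that hold the mRNA or from more mRNA per cell, which cannot be told apart here.

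**Figure D1:**
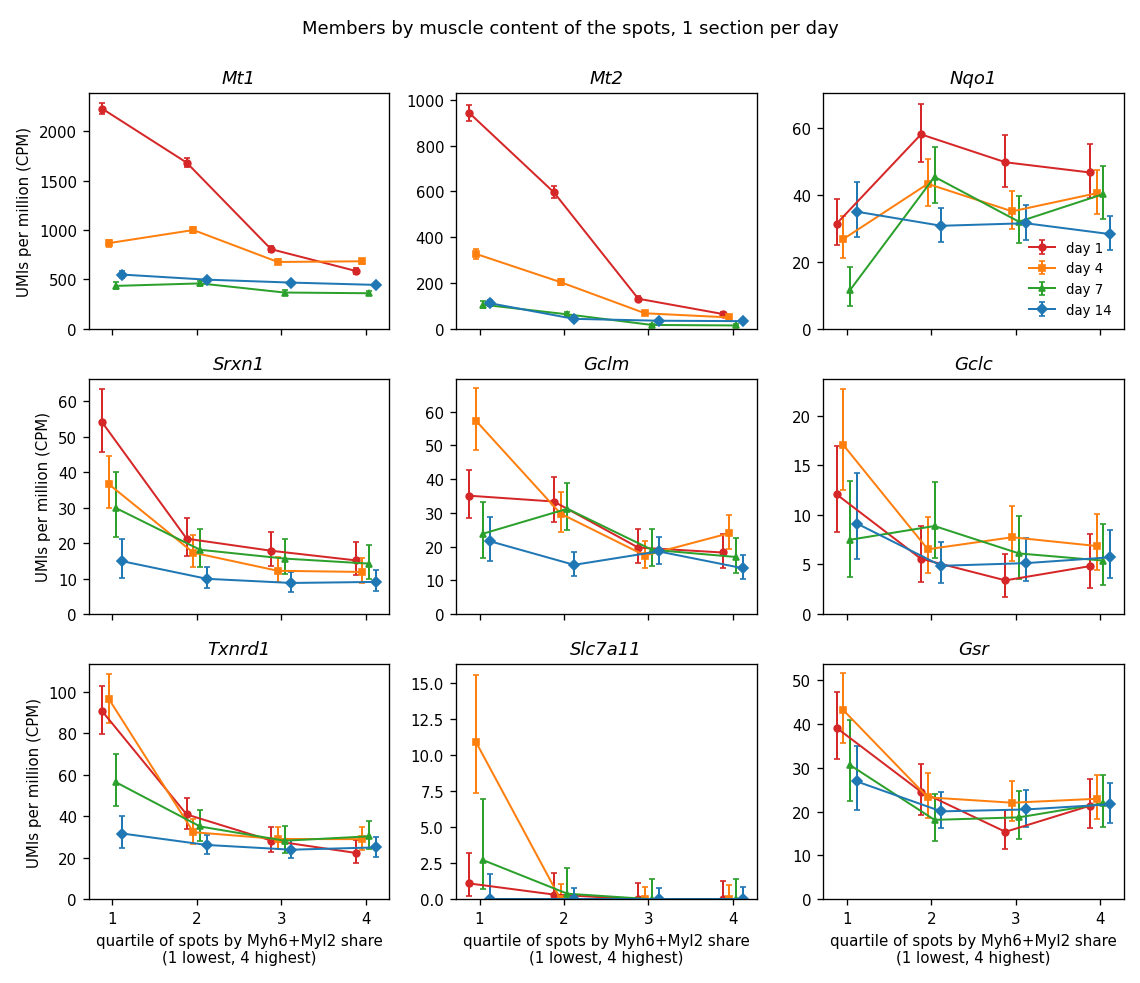
Level of each of the 9 genes (CPM, vertical axis, from 0) in the 4 quartiles of spots ranked by Myh6+Myl2 share (horizontal axis, 1 lowest, 4 highest), with 1 line per day and exact Poisson 95% intervals as bars. Mt2 falls from quartile 1 to quartile 4 on all days, from 943 to 64.0 CPM on day 1, while Nqo1 is lowest in quartile 1 on days 1, 4 and 7.

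Mt1 measured 2227, 1681, 805 and 585 CPM over the same quartiles on day 1, so the muscle-poor quartile was 3.81-fold above the muscle-rich one. On day 4 its values were 866, 999, 675 and 682 CPM, on day 7 they were 433, 458, 365 and 358 CPM, and on day 14 they were 547, 496, 466 and 443 CPM. On these later days the ends of the ranking differed by only 1.21-fold to 1.27-fold, and on days 4 and 7 the second quartile was the highest.

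Sums per section and quartile were compared with edgeR's quasi-likelihood test, with the 4 sections as replicates and as a block, and p-values adjusted by Benjamini-Hochberg over 11615 genes. Log2 fold changes use TMM factors, which put the median of all genes at 0.07. With library totals in place of TMM the median was 0.71, a shift that applies to every value of this comparison. Of the 8 genes tested, 3 were higher and 1 was lower in the muscle-poor quartile at an adjusted p under 0.05. Over all genes, 52.6% were called, 27.6% as higher and 25% as lower, so that 4 of 8 is near the share of all genes. The median log2 fold change of the 8 was 0.31.

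Mt2 rose by a log2 fold change of 2.16 (SE 0.31, adjusted p = 6.97e-05, higher in 4 of 4 sections), and by 1.74 to 2.78 under the alternatives run, all of which called it. With TMM the log2 ratios of Mt2 in the single sections were 3.39, 1.79, 2.19 and 1.43 on days 1, 4, 7 and 14. Mt1 differed by 0.09 (SE 0.27, adjusted p = 0.802), or by 0.71 on library totals (adjusted p = 0.0138), the same as the median of all genes on that scale. With TMM the log2 ratios of Mt1 in the single sections were 1.44, -0.61, -0.46 and -0.04 on days 1, 4, 7 and 14. Without the day 1 section the Mt1 value was -0.38 (adjusted p = 0.166).

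Among the NRF2 targets, Srxn1 and Txnrd1 rose in muscle-poor spots and Nqo1 fell. Srxn1 measured 54.1, 36.6, 29.9 and 14.9 CPM in the lowest muscle quartile of days 1, 4, 7 and 14. In the highest quartile it measured 15.1, 11.9, 14.2 and 9.04 CPM, below the lowest quartile in each section. On day 14 the interval of this ratio included equal levels. The log2 fold change of Srxn1 was 0.74 (SE 0.17, adjusted p = 0.00142), and 0.46 without day 1 (adjusted p = 0.0291). Txnrd1 measured 90.6, 96.4, 56.4 and 31.7 CPM in the lowest quartile against 22.4, 29.0, 30.3 and 24.98 CPM in the highest. The ratio was 4.05-fold on day 1 and 1.27-fold on day 14, where its interval includes equal levels. On day 14 the lowest quartile also held the most cardiomyocyte markers (37166 CPM), and their part was not tested. The log2 fold change of Txnrd1 was 0.66 (SE 0.20, adjusted p = 0.0104). This call was lost without day 1 (0.34, adjusted p = 0.140) and without day 4 (0.60, adjusted p = 0.0688), and Eid3 overlaps Txnrd1 on the same strand.

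Nqo1 measured 31.4, 26.8, 11.6 and 35.0 CPM in the lowest muscle quartile of the 4 days. In the highest quartile it measured 46.8, 40.6, 40.3 and 28.3 CPM, so the muscle-poor quartile was lower on days 1, 4 and 7 and not on day 14. Cardiomyocyte markers in the muscle-poor quartile were highest on day 14 (37166 CPM), and their part was not tested. The second quartile held 58.2, 43.4, 45.5 and 30.8 CPM of Nqo1, well above the first on days 1, 4 and 7. The log2 fold change was -1.17 (SE 0.26, adjusted p = 0.00142, lower in 3 of 4 sections by CPM) and -0.54 on library totals (adjusted p = 0.0441). The smallest Nqo1 value, on day 7, came from the quartile that held the skeletal muscle spots, and without those spots the log2 fold change was -1.14 (adjusted p = 0.000899).

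Gclm, Gclc and Gsr did not pass the test, with log2 fold changes of 0.25 (SE 0.19), 0.38 (SE 0.25) and 0.03 (SE 0.15), the last at -0.12 without day 1. By CPM all 3 were higher in the lowest than in the highest muscle quartile of every section. The intervals of the ratios included equal levels on day 7 for all 3, and on day 14 for Gclc and Gsr. Gclc measured 12.1, 17.0, 7.48 and 9.12 CPM in the lowest quartile against 4.82, 6.85, 5.38 and 5.71 CPM in the highest. Gclm measured 35.1, 57.3, 23.8 and 21.6 CPM in the lowest quartile against 18.2, 24.0, 16.9 and 13.6 CPM in the highest. Gsr measured 39.1, 43.1, 30.6 and 26.9 CPM against 21.3, 22.9, 21.9 and 21.7 CPM. On library totals these differences passed (adjusted p = 0.00252 for Gclm, 0.00289 for Gclc and 0.00193 for Gsr), with log2 fold changes of 0.90, 1.02 and 0.67 beside the median gene's 0.71 and 68.9% of all genes called. Border-zone, smooth muscle, fibroblast, macrophage and neutrophil markers and the shallower depth described above moved with this comparison. Mesothelial markers did too, and adipocyte markers did so on days 1 and 7. The part of all these in the comparison was not tested.

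**Figure D2:**
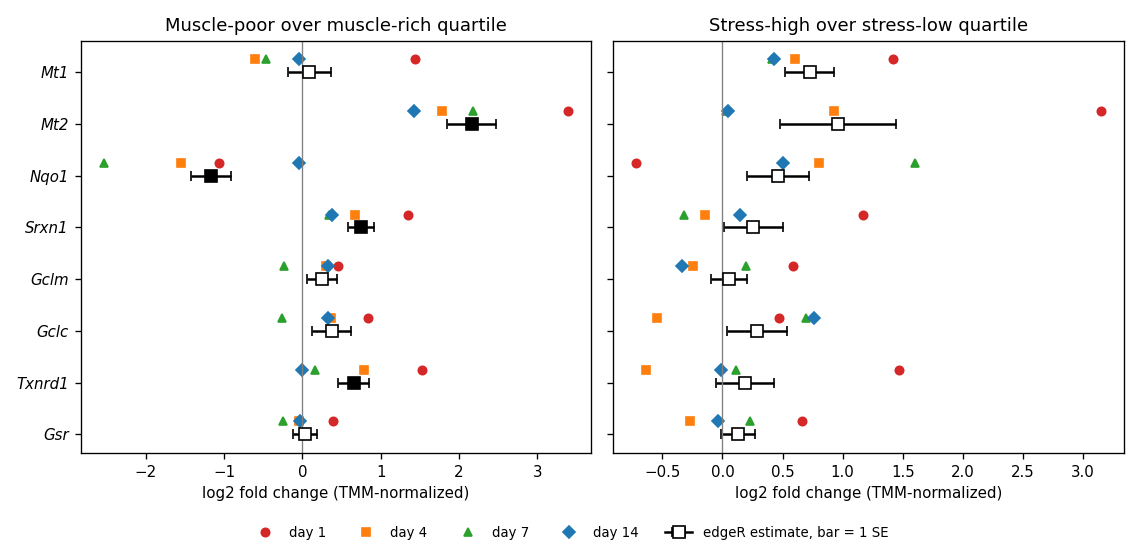
Log2 fold changes (TMM-normalized, horizontal axes) of the 8 tested genes between the ends of the muscle ranking (left) and of the stress ranking (right). Squares with bars are edgeR estimates with 1 SE, filled where the adjusted p is under 0.05, and small coloured symbols are the single sections. Mt2, Srxn1, Txnrd1 and Nqo1 are filled on the left and no gene is filled on the right.

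Of 10 tested genes that control NRF2, 3 rose and 3 fell in muscle-poor spots, close to the 27.6% and 25% of all genes, and 4 did not pass. Nfe2l2, which encodes NRF2, differed by 0.08 (SE 0.12, adjusted p = 0.577) and Keap1 by -0.21 (SE 0.15, adjusted p = 0.241). Bach1, a repressor that competes at AREs, rose by 1.01 (SE 0.17, adjusted p = 0.000193), Maff by 0.78 (SE 0.27) and Mafg by 0.41 (SE 0.15), the last 2 being small MAF partners. Cul3, the ubiquitin ligase subunit that acts with KEAP1, was lower by TMM (-0.54, SE 0.16) but not on library totals (0.09). The autophagy receptor Sqstm1 and the relative Nfe2l1 likewise changed sign, at -0.51 and -0.47 by TMM and 0.11 and 0.16 on totals. On totals, 7 of the 10 were higher and 0 lower, where 58.2% of all genes were higher and 10.7% lower. Their median by TMM was -0.03.

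Of 23 further known NRF2 targets, 7 rose, 7 fell and 9 did not pass, again close to the shares of all genes (27.6% and 25%), and their median log2 fold change was 0.03. Hmox1, which breaks down heme, rose most (3.40, SE 0.53, adjusted p = 0.000177), followed by Ugdh, which makes UDP-glucuronate (1.94, SE 0.20), and Ftl1, the ferritin light chain (1.85, SE 0.23). The largest falls were in the glutathione S-transferases Gsta3 (-2.47, SE 0.33), Gsta4 (-1.87, SE 0.26) and Gstm1 (-1.73, SE 0.26). These 6 kept their direction on library totals, where 13 of the 23 were higher and 3 lower (58.2% and 10.7% of all genes).

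Of 21 other enzymes of glutathione, thioredoxin and superoxide chemistry, 6 rose and 11 fell, with a median of -0.80, while 27.6% of all genes rose and 25% fell. The cytosolic glutathione peroxidase Gpx1 rose by 1.50 (SE 0.18), the secreted superoxide dismutase Sod3 by 1.12 (SE 0.22) and Gpx8, a peroxidase of the endoplasmic reticulum, by 1.08 (SE 0.19). Gstk1 (-2.21, SE 0.34), Mgst3 (-1.90, SE 0.33) and the mitochondrial superoxide dismutase Sod2 (-1.82, SE 0.29) fell most. On library totals 8 were higher and 7 lower, against 58.2% and 10.7% of all genes.

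Zinc handling genes are of interest beside the metallothioneins. Of 13 tested out of 14, 8 rose and 1 fell, with a median of 0.82, against 27.6% and 25% of all genes and their median of 0.07. The importers Slc39a6 (1.87, SE 0.30) and Slc39a1 (1.25, SE 0.17) and the exporter Slc30a7, which loads the Golgi (1.34, SE 0.28), rose most. Slc30a9 was lower by TMM (-0.76, SE 0.13) and did not pass on totals (-0.13, adjusted p = 0.433). Mtf1, the zinc sensor, differed by -0.16 (SE 0.27, adjusted p = 0.648). Slc30a1, a well-known MTF1 target that exports zinc, differed by -0.12 (SE 0.16, adjusted p = 0.557). On library totals both had values above 0, 0.48 (adjusted p = 0.104) and 0.51 (adjusted p = 0.0260). Of the 13 zinc handling genes, 11 were higher and 0 lower on totals, where 58.2% of all genes were higher and 10.7% lower. Of 7 genes tested in a glucocorticoid response list of 8, Cebpd (1.26, SE 0.18) and Fkbp5 (0.89, SE 0.19) rose, Klf9 (-1.09, SE 0.24) and Tsc22d3 (-0.68, SE 0.18) fell, and 3 did not pass, near the shares of all genes. On totals, 5 of these 7 were higher and 1 lower, beside 58.2% and 10.7% of all genes, and Tsc22d3 was at -0.06 (adjusted p = 0.755).

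The second comparison asked whether the genes follow cardiomyocyte stress genes. No member passed the test between the highest and lowest quartiles of the stress ranking, where 0.827% of 11615 genes were called. The edgeR p of Mt1 before adjustment was 0.00265, which takes no account of the number of genes tested. DESeq2 called Mt1, and it called more of all genes than edgeR did (counts in the last section). Whether Mt1 stands apart from all genes was not tested. Mt1 measured 613, 674, 1678 and 2215 CPM from the lowest to the highest stress quartile on day 1. It measured 652, 647, 798 and 1088 CPM on day 4, 381, 357, 377 and 469 CPM on day 7, and 418, 446, 478 and 564 CPM on day 14. The highest quartile had the highest level in each section. The log2 fold change was 0.72 (SE 0.20, adjusted p = 0.145 in edgeR) and the adjusted p was 0.0275 in DESeq2. Without day 1 it was 0.48 and passed (adjusted p = 0.0379), and with other ranking genes it was 0.45 (adjusted p = 0.101). The fit without day 1 called more of all genes than the main one (counts in the last section). Whether Mt1 stands apart from them was not tested.

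**Figure D3:**
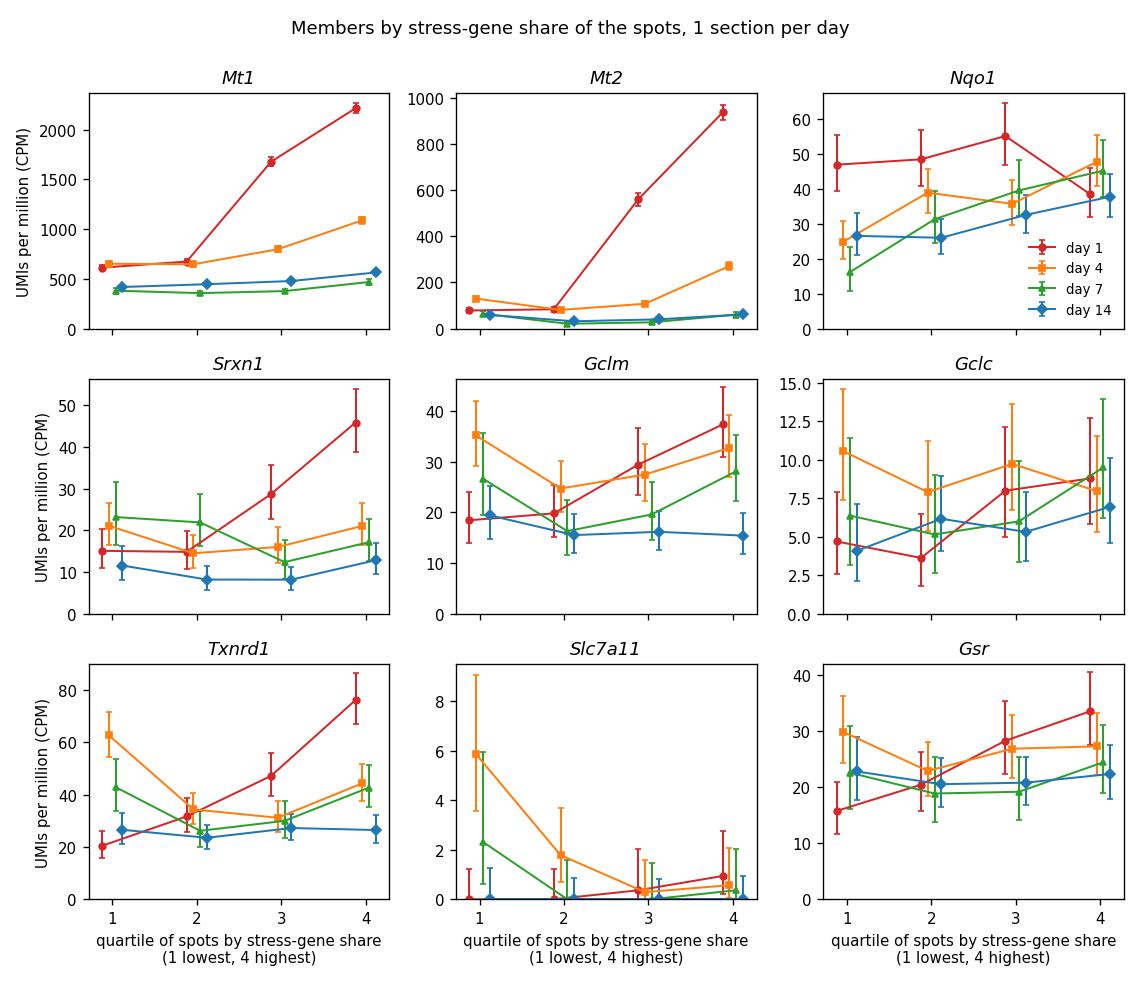
Level of each of the 9 genes (CPM, vertical axis, from 0) in the 4 quartiles of spots ranked by the share of Ankrd1, Flnc, Xirp2 and Nppb (horizontal axis, 1 lowest, 4 highest), with 1 line per day and exact Poisson 95% intervals as bars. Mt1 is highest in quartile 4 on all days, Mt2 is high at both ends after day 1, and Nqo1 rises on days 4, 7 and 14.

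Mt2 followed the stress ranking on day 1, with 78.5, 83.8, 559.9 and 937 CPM. Afterwards it was high at both ends, with 129.8, 81.0, 108 and 271 CPM on day 4, 64.3, 21.0, 27.2 and 60.6 CPM on day 7, and 59.3, 31.8, 40.1 and 61.5 CPM on day 14. Its log2 fold change of 0.96 (SE 0.48, adjusted p = 0.527) averages sections that differ. It was 0.39 without day 1 (adjusted p = 0.194). With other stress genes for the ranking it was 1.66 and passed (adjusted p = 0.0119). That ranking called far more of all genes than the main one (counts in the last section), so the call does not set Mt2 apart. On day 1, 68.5% of the spots of the lowest muscle quartile belonged to the highest stress quartile, against 31.0%, 8.44% and 31.0% on days 4, 7 and 14, where unrelated rankings would give 25%. Fibroblast genes summed to 987, 13361, 23839 and 4105 CPM in the lowest stress quartile of the 4 days and to 1875, 15634, 10138 and 2231 CPM in the highest. Their part in the Mt2 levels was not tested.

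Nqo1 ran along the stress ranking on days 4, 7 and 14 and not on day 1. It measured 24.9, 39.0, 35.8 and 47.8 CPM from the lowest to the highest stress quartile on day 4. On day 7 it measured 16.2, 31.3, 39.6 and 45.3 CPM, and on day 14 it measured 26.6, 26.0, 32.6 and 37.8 CPM. On day 1 it measured 47.0, 48.5, 55.2 and 38.6 CPM, and the interval of the ratio of its ends included equal levels. The lowest stress quartile of day 7 also held 12095 CPM of skeletal muscle genes and 23372 CPM of cardiomyocyte markers. The highest held 153 and 41433 CPM, and the part of these in the Nqo1 values was not tested. Over the 4 sections the log2 fold change of Nqo1 was 0.46 (SE 0.26, adjusted p = 0.576), and without day 1 it was 0.88 (adjusted p = 0.00868). With other ranking genes it was 0.02. The fit without day 1 called more of all genes than the main one (counts in the last section). Whether Nqo1 stands apart from them was not tested. Txnrd1 ran the other way on days 1 and 4, with 20.5 CPM at the low-stress end and 76.2 CPM at the high-stress end on day 1 but 62.7 and 44.4 CPM on day 4. The log2 fold change of Txnrd1 was 0.19 (SE 0.24) and turned to -0.23 without day 1. The remaining 4 tested genes had log2 fold changes between 0.05 (Gclm) and 0.29 (Gclc). Without day 1, Srxn1, Gclm and Gsr turned to -0.11, -0.14 and -0.05. With other ranking genes, which called far more of all genes, Srxn1 was 0.64 and passed (adjusted p = 0.0274). Of the pathway lists, with 10, 23, 21, 13 and 7 genes tested, 1 gene passed, where 0.827% of all genes were called. This was the small MAF gene Mafk (0.95, SE 0.18, adjusted p = 0.0172, higher in 4 of 4 sections). The 2 rankings share their spots and sections, so their comparisons are not independent.

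Each section was also divided at its median Myh6+Myl2 share into muscle-rich and muscle-poor spots, and each part at its own median stress-gene share. In muscle-rich spots this held Myh6+Myl2 nearly even between stress-low and stress-high spots (22947 to 25983 CPM in all 8 groups), but in muscle-poor spots it did not. Other cells were not held even in muscle-rich spots. Fibroblast genes summed to 1050, 1861, 2116 and 1087 CPM in stress-high ones on days 1, 4, 7 and 14, against 943, 1300, 1463 and 782 CPM in stress-low ones. Macrophage genes summed to 328, 635, 594 and 311 CPM against 275, 358, 426 and 257 CPM. Their part in the values below was not tested. Within muscle-rich spots no gene passed (0% of 11615 called by edgeR and 0 by DESeq2, with 155 genes higher and 69 lower at an unadjusted p under 0.05). Mt2 measured 126, 67.0, 19.0 and 38.6 CPM in stress-high muscle-rich spots on days 1, 4, 7 and 14, against 72.7, 50.6, 10.4 and 28.7 CPM in stress-low ones. It was higher in each section, with a log2 fold change of 0.45 (SE 0.29, adjusted p = 1.00). When only the compared spots entered the fit, the change was 0.49 with an adjusted p of 2.50e-06, and Mt1 (0.13, adjusted p = 0.0402) was called too. That fit rests on fewer libraries, and it also called many other genes where the main fit called none (counts in the last section). Mt1 measured 798, 721, 374 and 501 CPM against 603, 639, 348 and 411 CPM. Nqo1 measured 54.0, 41.0, 36.9 and 34.8 CPM against 43.2, 34.6, 35.3 and 25.3 CPM, with a log2 fold change of 0.15 (SE 0.30). The intervals of its ratios by CPM included equal levels on days 1, 4 and 7.

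Within muscle-poor spots, 0.344% of genes passed (0.0775% higher and 0.267% lower) and no member did, and none had an unadjusted p under 0.05. Nqo1 measured 47.1 CPM in stress-high against 22.5 CPM in stress-low muscle-poor spots on day 4, and 47.8 against 10.6 CPM on day 7. On day 14 the values were 33.5 and 30.2 CPM, and on day 1 they were turned, at 38.7 and 53.3 CPM. The log2 fold change was 0.61 (SE 0.32, adjusted p = 0.527). Muscle content ran the same way, with Myh6+Myl2 at 9499, 9494, 15160 and 19569 CPM in stress-high against 15299, 7827, 5916 and 18371 CPM in stress-low muscle-poor spots on days 1, 4, 7 and 14. On day 7 the stress-low muscle-poor spots also held 18274 CPM of skeletal muscle genes and 30212 CPM of fibroblast genes, against 495 and 13637 CPM in the stress-high ones. The part of these in the Nqo1 values was not tested. Mt1 was higher in stress-high muscle-poor spots of each section (2219, 1106, 486 and 539 CPM against 1601, 734, 391 and 471 CPM), with a log2 fold change of 0.46 (SE 0.25, adjusted p = 0.566). Mt2 measured 937, 277, 75.0 and 62.3 CPM against 546, 233, 81.9 and 65.7 CPM, higher on days 1 and 4. The stress effect was not shown to differ between muscle-rich and muscle-poor spots for any gene (0% called by edgeR and 0 by DESeq2, with 498 genes higher and 197 lower at an unadjusted p under 0.05). For Nqo1 that difference was -0.46 (SE 0.44) and for Mt1 -0.36 (SE 0.36).

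The number of Mt2 UMIs per Mt1 UMI does not depend on the scaling of a library, and the lengths of the transcripts cancel when it is compared between groups of spots. Over all spots it was 0.323, 0.184, 0.106 and 0.0973 on days 1, 4, 7 and 14. In the lowest muscle quartile it was 0.423, 0.377, 0.242 and 0.204, and in the highest it was 0.109, 0.0718, 0.0386 and 0.0736. The 4 ratios of muscle-poor spots all lay above the 4 of muscle-rich spots. The mean log2 difference was 2.12 ± 0.52 (SD, n = 4 sections), or 2.76-fold to 6.28-fold, with an exact two-sided permutation p of 0.125, the smallest that 4 sections allow. Along the stress ranking the ratio was higher at the high end on days 1 and 4 (0.423 against 0.128, and 0.249 against 0.199) and lower on days 7 and 14 (0.129 against 0.169, and 0.109 against 0.142). The mean log2 difference was 0.32 ± 0.99 (SD, n = 4 sections, exact two-sided permutation p = 0.875).

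**Figure D4:**
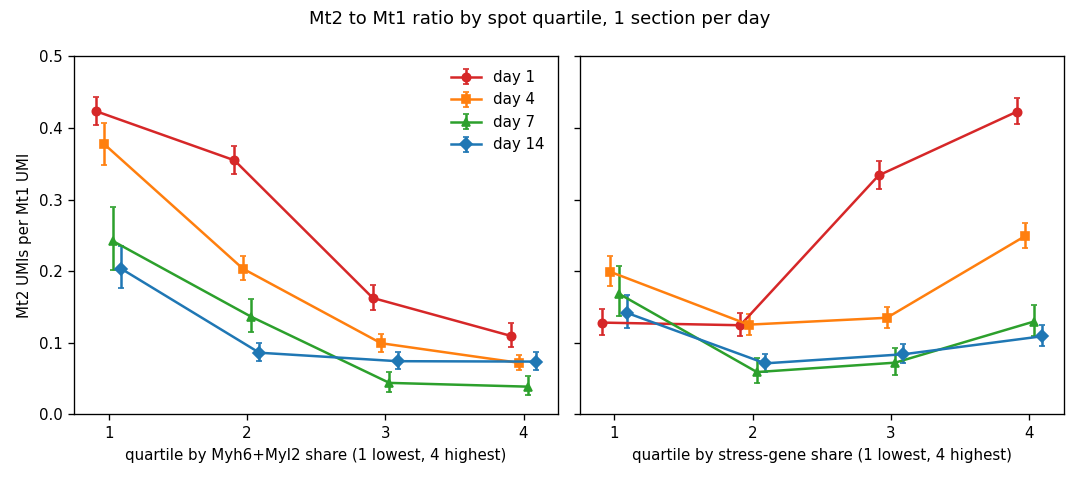
Mt2 UMIs per Mt1 UMI (vertical axis, from 0) in quartiles of spots by Myh6+Myl2 share (left) and by stress-gene share (right), with 1 line per day and exact 95% intervals as bars. In the left panel the ratio of quartile 1 exceeds that of quartile 4 on all days (0.423 against 0.109 on day 1), and in the right panel days 7 and 14 are highest in quartile 1.

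Across the 16 libraries of section and muscle quartile, Mt1 and Mt2 had a Pearson r of 0.92 on log2(CPM + 1), and Srxn1 and Txnrd1 also had 0.92. Nqo1 ran apart from the other 8 genes, with r between -0.52 (Slc7a11) and 0.31 (Mt1). The genes most like Mt1 besides Mt2 were Flot1 (0.89) and Lcn2 (0.89), and for Mt2 they were Serpina3n (0.90) and Ccl7 (0.90). Nqo1 was most like Hand2os1 (0.88), Lonp1 (0.87) and Pcdh7 (0.87), Gclm like Pdcd10 (0.93), Serpinb1a (0.90) and Hnrnpl (0.90), and Gsr like Hnrnpa1 (0.95), Eny2 (0.95) and Tpd52l2 (0.92). Txnrd1 was closest to Btf3, Npm1 and Anp32b (0.98 each). The libraries share 4 sections, their depth and the same ranking, so these values describe these libraries and carry no p. Over the 16 libraries of the stress ranking, 2 of the 3 genes most like Mt1 were the same, 1 of 3 for Mt2 and Nqo1, and 0 of 3 for Gclm, Txnrd1 and Gsr.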

How the data were processed

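The authors deposited unnormalized UMI counts per gene and spot, made with Space Ranger 1.3.0 on mm10 from images aligned by hand and limited to spots under tissue. The submitters' processing notes also name Seurat 4.1.1. Days follow the labels, although the study's results text calls the earliest section day 2. Spots with more than 1% of UMIs in 8 hemoglobin genes were left out, and positions and images were not used. Medians of 5188 to 8799 UMIs per spot set the precision, and intervals are exact (Poisson, or conditional for ratios), at 95%, for counting error only.

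UMIs were summed per section and spot group (16 libraries per fit). edgeR 4.0.16 (R 4.3.3, limma 3.58.1) fitted genes with at least 100 UMIs, without the 6 ranking genes, with TMM and the section as a block. SE is the log2 fold change over the square root of F. Sections counted as higher are by CPM. Spots of 1 section are not replicates, and 4 sections of different days served as replicates of within-section differences. On simulated counts, 132 of 195 genes changed by a log2 of 1 in the muscle comparison were called, with 6 false among 138 calls. In the stress comparison 128 of 200 were called, and 11 of 139 calls were false (7.91%). The simulation used 1 mean profile and 1 fixed dispersion, with the same change in all sections. Few genes were changed, whereas 52.6% were called in the real muscle comparison. These figures therefore do not give the power or error where sections differ. Members and lists were chosen with earlier results of these data known. Named are all 9 members, of each list the 3 largest rises and 3 largest falls that passed, and the 3 genes most like Mt1, Mt2 and each other member with at least 1000 UMIs. Nfe2l2, Keap1, Mtf1 and Slc30a1 were named outside this rule, after their values were seen. Alternatives were library totals, totals without mitochondrially encoded and ranking genes, DESeq2 1.42.0, other minimums of UMIs, no block, only the compared groups, each section left out, other spot filters, tertiles, and other ranking genes (Tnnt2, Actc1, Tnni3 and Mb, and Nppa, Acta1, Myh7 and Clu). Gene positions are from GENCODE and promoters from RefSeq on GRCm38, where 7 of 9 members had a window.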

Additional observations from a re-analysis of the deposited data

Results flagged for a closer look

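Some differences between spot groups ran in opposite directions in sections of different days, each with a 95% counting interval that excludes 0 on the TMM scale. Whether the days differ was not tested, since each is 1 mouse. Values are log2 ratios on the TMM scale.

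Mt1 in the lowest over the highest muscle quartile was 1.44 on day 1 but -0.61 on day 4 and -0.46 on day 7, while by CPM all 3 were above 0 (1.93, 0.34 and 0.27), so the opposite signs depend on the scaling.

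Nqo1 in the highest over the lowest stress quartile was -0.72 on day 1 and 0.80, 1.60 and 0.50 on days 4, 7 and 14. Within muscle-poor spots its stress-high over stress-low ratio was -0.61 on day 1, 1.29 on day 4 and 2.37 on day 7. By CPM the day 1 value between stress quartiles was -0.28, with an interval of -0.65 to 0.08 that includes 0.

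Txnrd1 in the highest over the lowest stress quartile was 1.47 on day 1 and -0.64 on day 4, and within muscle-poor spots 0.47 and -0.77. Gclm within muscle-poor spots was -0.48 on day 4 and 0.78 on day 7, and by CPM the latter was 0.59, with an interval that includes 0.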

How the results depend on the processing

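Mt2, Nqo1 and Srxn1 kept their direction and call between muscle quartiles under all alternatives run for them (17, 17 and 16), and Txnrd1 in 13 of 17, the losses being without day 1, without day 4, with only the compared groups (0.64, adjusted p = 0.0936) and with other ranking genes (0.47, adjusted p = 0.0520). Without the section block of the paired model, the edgeR adjusted p was 0.0382 for Mt2 and 0.00841 for Nqo1. It was 0.0282 for Srxn1 and 0.0168 for Txnrd1. The cause of the changes below was not tested. Between muscle quartiles, 3203 genes were higher and 2901 lower, and 8 of the 8 tested members were called with library totals (6760 higher, 1238 lower), 7 with totals without mitochondrially encoded and ranking genes (5218 and 1807). With TMM 52.5% of the called genes were higher, with totals 84.5%. With at least 1000 UMIs per gene 1676 were higher and 1545 lower, fewer being tested. Between stress quartiles, 60 genes were higher and 36 lower. Other values were 102 higher with totals, 102 and 61 with DESeq2 and 1 member called (Mt1), 14 lower with at least 1000 UMIs, 5 and 0 without the replicate block, 1 and 0 with only the compared groups, 10 and 6 with tertiles, and 1488 and 1566 with other ranking genes, which called 2 members, Mt2 (1.66, adjusted p = 0.0119) and Srxn1 (0.64, adjusted p = 0.0274). Leaving out 1 section gave 4 to 221 higher, 1 to 364 lower and 0 to 2 members, the largest without day 1 (Mt1 and Nqo1). Within muscle-rich spots, only the compared groups gave 204 higher, 278 lower and 2 members. Within muscle-poor spots, 9 genes were higher and 31 lower. Totals gave 5 higher, DESeq2 18 higher, at least 1000 UMIs 2 and 4, no replicate block 0 and 0, no hemoglobin filter 52 lower, removal of skeletal muscle spots 18 lower, other ranking genes 17 and 1, and leaving out 1 section 0 to 63 higher and 0 to 223 lower, the largest without day 1. For the difference of the stress effects, leaving out 1 section gave 0 to 3 higher (3 without day 1), and other ranking genes gave 2 lower. CPM per day rose by 1.32 to 1.52 times with totals without mitochondrially encoded genes. Depth limits Slc7a11 and Gclc most.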
